A study of Drosophila melanogaster with 4 samples.

Results

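The genes described here encode subunits of Mediator, of Integrator, of the TFIID complex and of RNA polymerase II (Pol II). They were taken by symbol, as every gene whose symbol begins with MED, IntS, Taf, RpII, Rpb or Polr2 followed by its number or letter, with the transcripts of a symbol summed. This gave 61 of the 14029 genes of the deposited values, namely 25 Mediator, 11 Integrator, 13 TAF and 12 Pol II genes. They lie on 6 chromosomes, with 18 genes on 3R, 15 on 3L, 10 each on 2L and 2R, 7 on X and 1 on chromosome 4. RNA was sequenced from whole male larvae of the larval instar 3, raised at 25 °C, with 2 libraries per genotype. The Inr-a duplication larvae (pcf11/+) were the progeny without green fluorescence of w[a]; Pcf11Dup/CyO GFP males and Canton S females, so that each carried an added copy of Inr-a and received a paternal set of autosomes from the duplication stock and the X chromosome from a Canton S mother. The wild type larvae (+/+) came from the Canton S stock itself. The deposited values are means over the libraries of a genotype, from which the counts of each library could be recovered.

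Pol II is recruited to promoters by general transcription factors, of which TFIID consists of the TATA-binding protein and its associated factors, the TAFs. Mediator bridges activators and Pol II, and is built of a head, a middle, a tail and a separable kinase module around the scaffold subunit MED14. Integrator is a metazoan complex that cleaves nascent RNA, both at the 3′ ends of small nuclear RNAs and near promoters, and that carries a phosphatase. Inr-a is the same gene as Pcf11, whose product binds the C-terminal domain of the largest Pol II subunit and acts in 3′ end cleavage and termination, and the comparison asks whether an added copy of it was accompanied by other RNA levels of these complexes.

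In each genotype, the deeper library is called A and the other B, letters that do not map to replicate numbers in the labels. The libraries held 15423445 and 14084653 counts in the Inr-a duplication and 12558720 and 11304266 counts in wild type, and the recovered counts of the 61 genes lay between 56 and 1744. Levels are given as normalised CPM, which is CPM (counts scaled to a common library total) divided by a scaling factor of the library, or as normalised CPM per kb of transcript where genes are compared with each other. Pcf11 itself had 88.5 and 91.4 normalised CPM in libraries A and B of the Inr-a duplication, against 59.8 and 57.3 normalised CPM in libraries A and B of the wild type. Its log2 fold change was 0.62 with an adjusted p of 0.180 in limma. With the trend against transcript length taken out it was 0.21 with an adjusted p of 0.673 in limma. Marker genes of other cell types also differed between the genotypes: 4 of 5 hemocyte, 2 of 6 muscle, 2 of 5 midgut and 1 of 1 fat body markers tested were higher in the Inr-a duplication, none was lower, and none of the 10 testis, 10 proliferating cell, 6 neuron and 1 salivary gland markers tested passed. Only 1 of 7 listed fat body and 1 of 6 listed salivary gland markers could be tested. The summed mean CPM of all 7 fat body markers in the Inr-a duplication was 1.17 times that in wild type. The summed normalised CPM of the testis markers was 503 and 434 in the Inr-a duplication, against 706 and 705 in wild type, and that of the hemocyte markers 342 and 467 in the Inr-a duplication, against 192 and 85.2 in wild type. Of the 3 listed yolk markers, only Yp1, a yolk protein of adult females, was at 0 in all libraries. The other yolk markers were detected in both genotypes, with a lower summed mean CPM in the Inr-a duplication than in wild type. Only 1 yolk marker could be tested, and it did not pass. Whole larvae were measured, so a smaller number of cells of a type and less RNA per cell cannot be told apart, and the part of the marker differences in the values below was not tested.

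None of the 61 genes passed an adjusted p of 0.05 in limma, in either direction. Among all 11540 genes tested, 1.72% passed as higher and 0.503% as lower in the Inr-a duplication, together 2.23%. With voom weights none of the 61 passed either. At an unadjusted p under 0.05, limma gave 2 of the 61 as higher (RpII215 and IntS6) and 2 as lower (MED4 and RpII33), against 12.2% and 8.61% of all genes. The unadjusted count of 4 is 6.56% of the 61 genes, beside 20.8% of all genes tested and 22.4% of the 7954 genes within the same range of levels. Voom also gave 4 of the 61, beside 20.5% of all genes.

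The fold changes of the subunit genes lay in a narrower range than those of all genes. Their log2 fold changes had a median of -0.06 and a middle range (the quartiles) from -0.28 to 0.13, while all genes tested had a median of 0.02 and quartiles of -0.31 and 0.38. An absolute log2 fold change under 0.5 was found for 53 of the 61 genes, or 86.9%, and for 68.4% of all genes. Among 62 other genes of the transcription machinery, described below, this share was 79.0%. It was highest for 17 general transcription factor genes, at 88.2%. The lowest share was 40%, for 5 TFIID genes named otherwise and relatives of the TATA-binding protein. The ratio of mean levels lay between 0.635 for MED4 and 1.86 for RpII215, with 38 genes between 0.8 and 1.25. The 95% confidence interval of the log2 fold change held 0 for 57 genes, and for 44 genes it excluded a 2-fold difference in both directions. Its median width to each side was 0.58, so that for 60 genes a 1.5-fold difference in at least one direction was not excluded. For 9 genes both libraries of the Inr-a duplication exceeded both of wild type, and for 18 genes both were lower, which is 14.8% and 29.5% of the 61, against 27% and 26.7% of all genes.

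**Figure D1:**
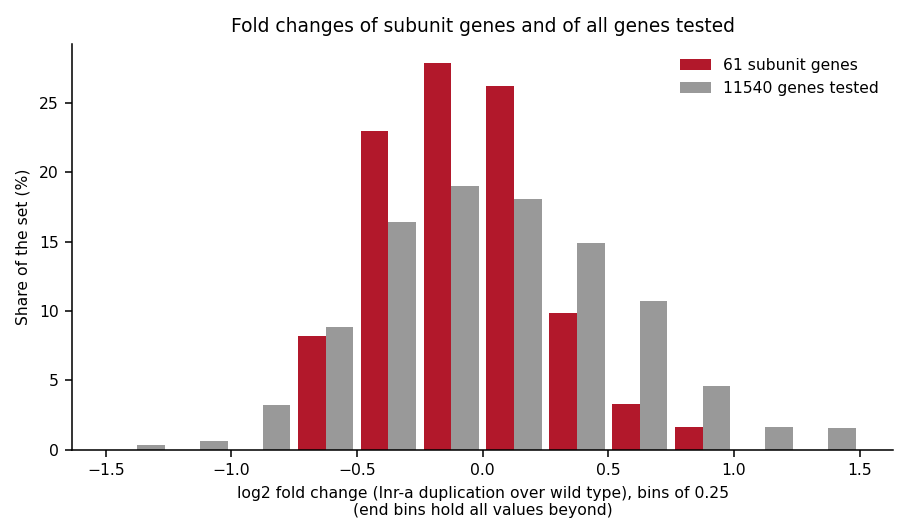
Share of the genes (%) in bins of 0.25 of the log2 fold change, Inr-a duplication over wild type, for the 61 subunit genes (red) and the 11540 genes tested (grey). The subunit genes all lie between -0.66 and 0.95, and 86.9% of them lie within 0.5 of 0, against 68.4% of all genes.

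**Figure D2:**
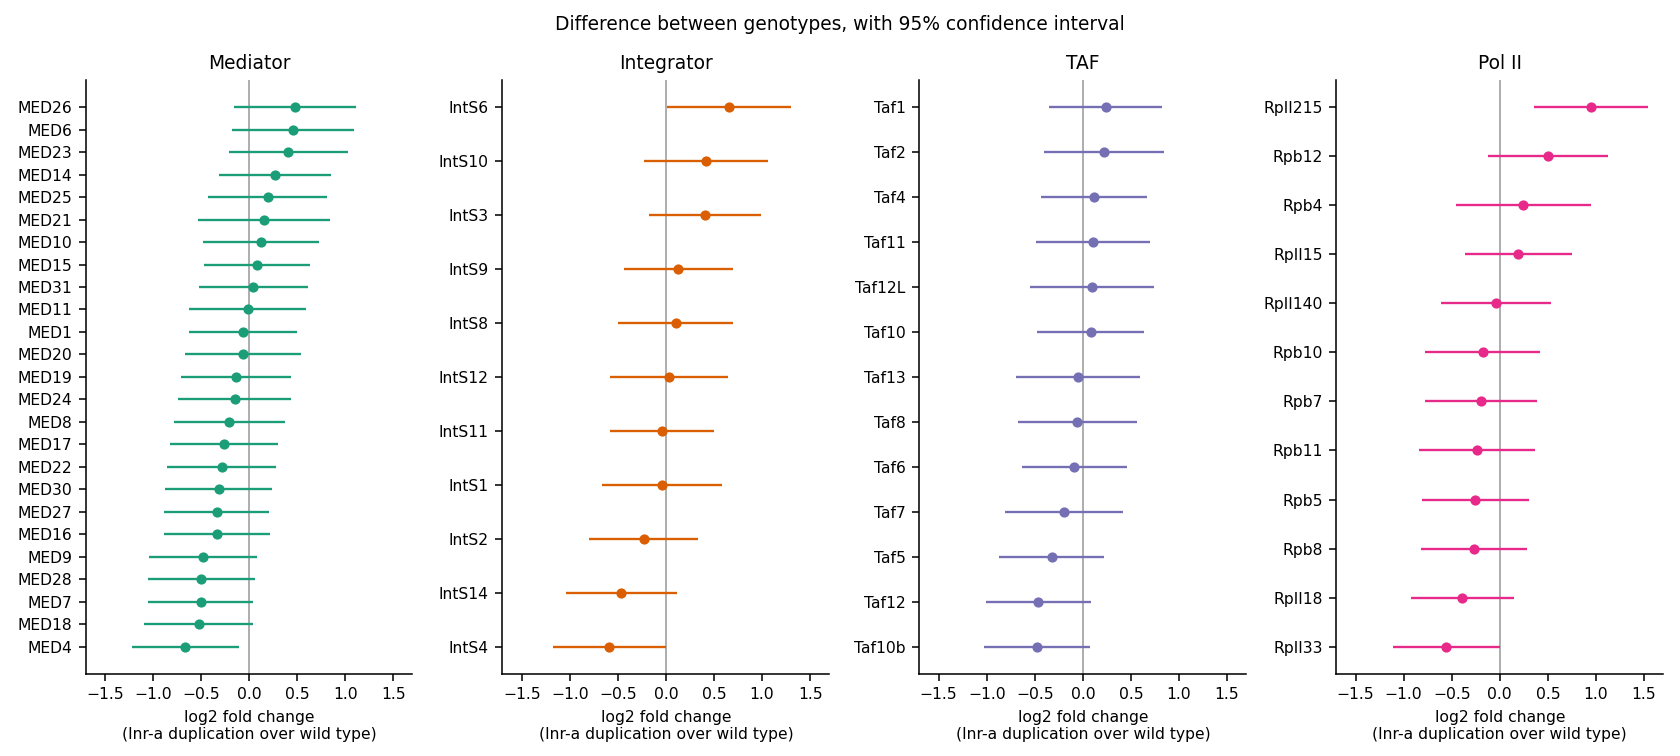
Log2 fold change, Inr-a duplication over wild type (x axis), of each of the 61 subunit genes, by complex. Points are the fitted values and lines their 95% confidence intervals in limma. The interval holds 0 for 57 genes, and RpII215 at 0.95 stands highest.

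Summed over each complex, the levels in the genotypes were close. The 25 Mediator genes had a summed normalised CPM of 692 and 665 in the Inr-a duplication, against 763 and 771 in wild type, so that both Inr-a duplication libraries lay lower. The 13 TAF genes had 390 and 388 in the Inr-a duplication, against 432 and 402 in wild type, and the 12 Pol II genes 440 and 411 in the Inr-a duplication, against 465 and 447 in wild type. For TAF and Pol II genes, too, both Inr-a duplication libraries lay lower. For the 11 Integrator genes, with 309 and 252 in the Inr-a duplication and 340 and 266 in wild type, the groups overlapped. All 61 genes together took between 0.172% and 0.202% of the counts of a library. The median log2 fold change was -0.19 for Pol II, -0.13 for Mediator, -0.05 for TAF and 0.03 for Integrator genes, beside 0.02 for all genes tested.

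Within each complex the RNA levels per kb of transcript differed far more between genes than between genotypes. In Pol II, RpII18 (the subunit known as Rpb6 in yeast, shared by Pol I, II and III) had the highest level in each of the 4 libraries, with 143 and 126 normalised CPM per kb in the Inr-a duplication, against 163 and 190 normalised CPM per kb in wild type. RpII215, the largest subunit, had the lowest mean level of the 12 genes, with 9.15 and 8.78 normalised CPM per kb in the Inr-a duplication, against 6.25 and 3.41 normalised CPM per kb in wild type. The mean over the 4 libraries was 156 normalised CPM per kb for RpII18, 28.4 for RpII140 and 6.89 for RpII215, although RpII140 and RpII215 are present in equal number in the enzyme. Among the TAF genes the means ranged between 104 normalised CPM per kb for Taf10b and 6.08 for Taf2. In Mediator they ranged between 75.9 for MED9 and 2.27 for MED23. Integrator genes had the narrowest range, between 21.2 normalised CPM per kb for IntS11 and 2.41 for IntS6. The genes at the top of the Pol II, TAF and Mediator orders have short transcripts, with 541 bases for RpII18, 560 for Taf10b and 871 for MED9. IntS11 has 2043 bases. The genes at the bottom of the same 3 orders have long transcripts, with 6736 bases for RpII215, 3972 for Taf2 and 4682 for MED23.

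**Figure D3:**
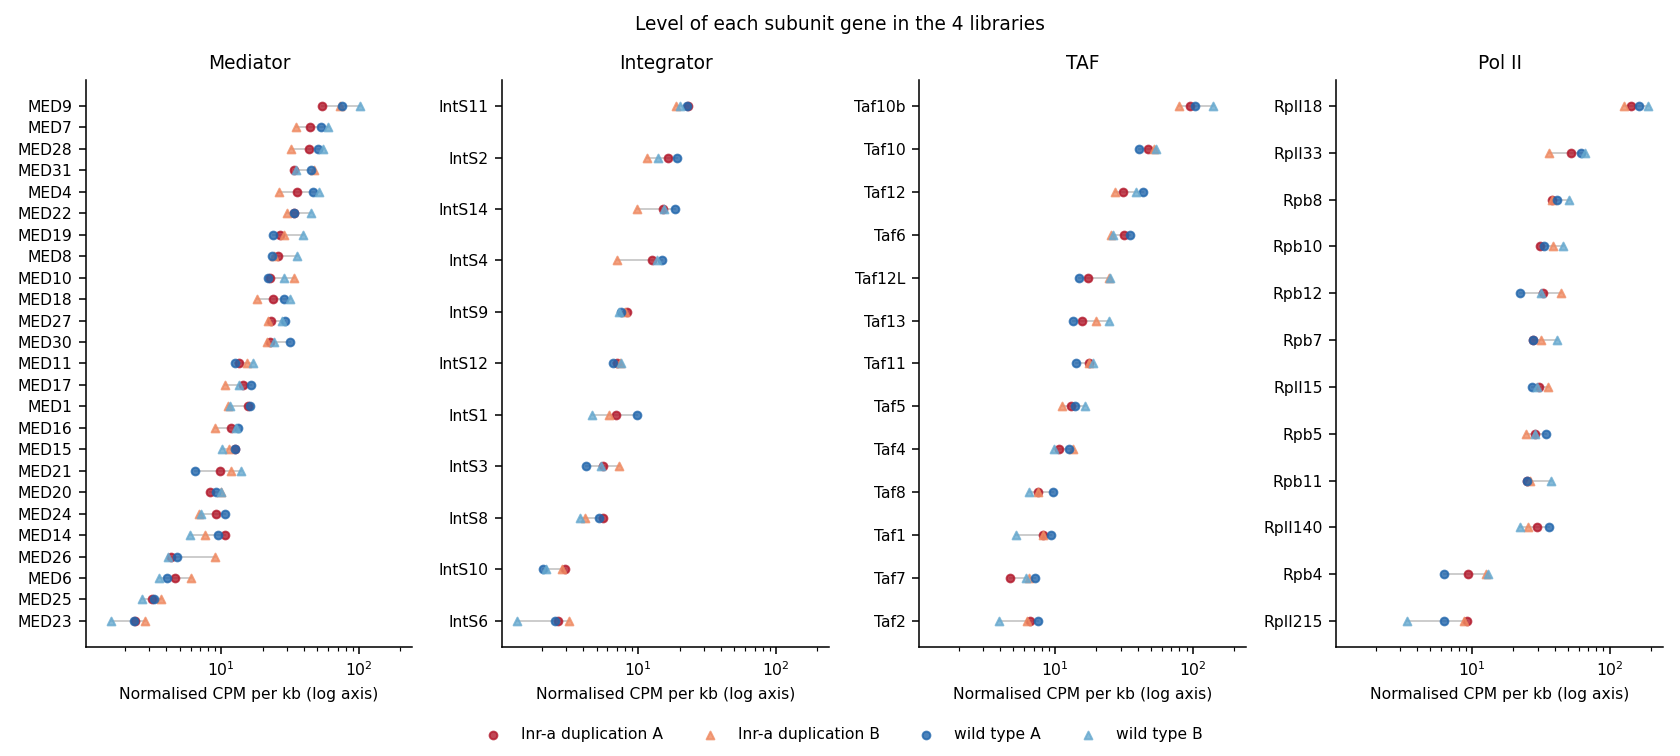
Normalised CPM per kb (x axis, log scale) of each subunit gene in the Inr-a duplication libraries (red) and the wild type libraries (blue), with circles for library A and triangles for library B. Genes are ordered by their mean within a complex, and the means of the 61 genes lie between 2.27 for MED23 and 156 for RpII18.

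Among the Pol II genes, RpII215 had the highest fitted difference of all 61 genes. RpII215 encodes the largest subunit, which carries the C-terminal domain, and stands on chromosome X in reverse orientation (FBgn0003277, chrX:11562800-11570326, BDGP6.54), with 1 transcript of 6736 bases. It had 61.6 and 59.1 normalised CPM in libraries A and B of the Inr-a duplication, against 42.1 and 23.0 normalised CPM in libraries A and B of the wild type. Both Inr-a duplication libraries were thus higher than both wild type libraries, and the wild type libraries differed from each other by more than the Inr-a duplication libraries did. The means were 60.4 ± 1.77 normalised CPM in the Inr-a duplication and 32.5 ± 13.5 in wild type (SD, n = 2 libraries each), and the log2 fold change in limma was 0.95 with a standard error of 0.29, an unadjusted p of 0.0031 and an adjusted p of 0.077. Without wild type library A the log2 fold change was 1.37, and without wild type library B it was 0.50. With the trend against transcript length taken out it was 0.53 with an adjusted p of 0.260 in limma.

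RpII140, the second catalytic subunit and the partner of RpII215 in the active site, was measured at 114 and 97.5 normalised CPM in the Inr-a duplication, against 138 and 85.0 normalised CPM in wild type. Its groups overlapped, and the log2 fold change was -0.04 with an interval from -0.61 to 0.54. The ratio of RpII215 to RpII140, taken per kb within a library, was 0.307 and 0.345 in the Inr-a duplication, against 0.173 and 0.153 in wild type, and in this ratio the wild type libraries lay close together. RpII33 (Rpb3), which forms a heterodimer with Rpb11 in the assembly of the enzyme, had 50.7 and 34.9 normalised CPM in the Inr-a duplication, against 59.7 and 64.6 normalised CPM in wild type. Both Inr-a duplication libraries were lower, with a log2 fold change of -0.56, an unadjusted p of 0.0496 and an adjusted p of 0.240 in limma. It was -0.84 without Inr-a duplication library A and -0.29 without library B. Rpb11 itself had 13.0 and 13.6 normalised CPM in the Inr-a duplication, against 12.9 and 19.3 normalised CPM in wild type, so that its groups overlapped.

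Rpb4 and Rpb7 form the stalk of the enzyme. Rpb4 had 6.75 and 9.09 normalised CPM in the Inr-a duplication, against 4.50 and 9.43 in wild type, and Rpb7 had 20.9 and 24.2 in the Inr-a duplication, against 21.0 and 31.7 in wild type, with overlapping groups in both cases. All of the exonic bases of Rpb4 are also annotated as exons of Ada2a, a gene of histone acetyltransferase complexes on the same strand, so the division of reads between these genes rests on the transcript quantification. RpII15 (Rpb9), a subunit with a role in elongation, had 22.3 and 26.3 normalised CPM in the Inr-a duplication, against 20.3 and 22.0 in wild type, with a log2 fold change of 0.19.

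Of the 5 subunits shared by Pol I, II and III, 4 had a log2 fold change below 0. The longest transcripts of the 5 genes had a median of 541 bases. Of all genes tested below 1 kb, 1545 of 2277 had a log2 fold change below 0. RpII18 had 77.1 and 68.3 normalised CPM in the Inr-a duplication, against 88.3 and 103 in wild type, with a log2 fold change of -0.39 (adjusted p = 0.386, limma). Rpb5, Rpb8 and Rpb10 had log2 fold changes of -0.25, -0.26 and -0.18. Rpb12, which has the shortest transcript of the set with 353 bases, went the other way. It had 11.5 and 15.7 normalised CPM in the Inr-a duplication, against 7.82 and 11.2 in wild type, so that both Inr-a duplication libraries were higher, with a log2 fold change of 0.50 (interval from -0.12 to 1.12) and an adjusted p of 0.337 in limma.

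In Mediator, 16 of 25 genes had a log2 fold change below 0 and 9 above 0, while 5592 of all 11540 genes tested were below 0. For 9 Mediator genes both libraries of the Inr-a duplication were lower than both of wild type, while 2 genes showed the opposite order. These are 36.0% and 8%, beside 26.7% and 27% of all genes. The longest transcripts of the Mediator genes had a median of 1098 bases. Among all genes tested, these shares were 41.4% and 12.5% below 1 kb, and 30.9% and 22.4% from 1 to 3 kb. MED4, a core subunit of the middle module, had the lowest fold change of the complex (FBgn0035754, reverse strand, chr3L:7249529-7250527, BDGP6.54). It had 33.5 and 24.7 normalised CPM in the Inr-a duplication, against 43.3 and 48.5 in wild type. The groups did not overlap, and the log2 fold change was -0.66 with a standard error of 0.27, an unadjusted p of 0.0215 and an adjusted p of 0.170 in limma. MED7 and MED9, also of the middle module, had log2 fold changes of -0.50 and -0.48. MED9 had 46.8 and 63.6 normalised CPM in the Inr-a duplication, against 65.8 and 88.1 in wild type. All of its exonic bases are shared with CG42518 on the same strand, which had 77.2 and 56.2 normalised CPM in the Inr-a duplication, against 75.9 and 104 in wild type.

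The 7 genes of the Mediator head had a median log2 fold change of -0.21, and 6 of them were below 0. The longest transcripts of these 7 genes had a median of 963 bases. All genes tested below 1 kb had a median log2 fold change of -0.21, with 1545 of 2277 below 0. MED18, a head subunit that docks with MED20 at the edge of the module, had 20.0 and 15.3 normalised CPM in the Inr-a duplication, against 24.1 and 26.7 in wild type, with a log2 fold change of -0.52 (adjusted p = 0.275, limma). MED17, the central head subunit, had 29.8 and 22.1 normalised CPM in the Inr-a duplication, against 34.1 and 27.8 in wild type, which overlap. MED6, which joins head and middle, was the exception among the head genes with a log2 fold change of 0.45. It had 7.50 and 9.98 normalised CPM in the Inr-a duplication, against 6.63 and 5.76 in wild type, and both Inr-a duplication libraries were higher, with an adjusted p of 0.396 in limma.

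MED14, the scaffold, had 59.2 and 42.3 normalised CPM in the Inr-a duplication, against 52.2 and 32.9 in wild type. Library A exceeded library B in both genotypes, and the log2 fold change was 0.27 with an interval from -0.32 to 0.85. The ratio of MED17 to MED14 per kb within a library was 1.35 and 1.39 in the Inr-a duplication, against 1.75 and 2.26 in wild type, with no overlap. Their longest transcripts have 2060 and 5513 bases. The log2 fold changes were -0.26 for MED17 and 0.27 for MED14, and -0.26 and -0.11 with the length trend taken out. The part of length in the ratio of MED17 to MED14 was not tested further. Ratios taken in the same way overlapped between genotypes for RpII33, Rpb4, Rpb7 and RpII18 over RpII140, and for RpII33 over Rpb11. Those of Taf12L over Taf12 and IntS9 over IntS11 also overlapped, while that of Rpb4 over Rpb7 did not. The 5 genes of the tail (MED15, MED16, MED23, MED24 and MED25), which contacts activators, had a median log2 fold change of 0.09. MED23 was the highest of them at 0.41, with 11.1 and 13.2 normalised CPM in the Inr-a duplication, against 10.9 and 7.42 in wild type, and MED16 the lowest at -0.33, with 32.4 and 24.9 in the Inr-a duplication, against 36.7 and 35.1 in wild type.

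MED26, a subunit known in mammals to contact elongation factors and TFIID, had the highest fold change of the Mediator genes. It lies on chromosome 4 (FBgn0039923, reverse strand, chr4:778516-788978, BDGP6.54). It had 21.5 and 44.8 normalised CPM in libraries A and B of the Inr-a duplication, against 24.0 and 20.4 normalised CPM in libraries A and B of the wild type. One Inr-a duplication library was thus high and the other within the range of wild type, and the log2 fold change of 0.48 had an adjusted p of 0.370 in limma. Leaving out library A of the Inr-a duplication gave 0.98 and leaving out library B gave -0.04, each with 1 Inr-a duplication library left in the fit. The 77 genes of chromosome 4 that were tested had a median log2 fold change of 0.56, and a median difference of 0.64 between Inr-a duplication libraries B and A, where MED26 had a difference of 1.04.

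The 13 TAF genes varied least. None had an unadjusted p under 0.05 in limma, all 13 had a log2 fold change between -0.48 and 0.24, and both libraries of the Inr-a duplication were lower than both of wild type for 3 genes, or 23.1%, and higher for none, beside 26.7% and 27% of all genes. Taf1, the largest TAF and a platform of the complex, had 54.8 and 54.7 normalised CPM in the Inr-a duplication, against 62.1 and 34.6 in wild type. The Inr-a duplication libraries lay between the wild type libraries, and the log2 fold change was 0.24 with an interval from -0.35 to 0.82. Taf4 and Taf6, histone fold subunits of the TFIID core, had log2 fold changes of 0.12 and -0.09 with overlapping groups. Taf2, which binds the initiator element as part of TFIID, had 25.6 and 24.5 normalised CPM in the Inr-a duplication, against 30.2 and 15.3 in wild type, again on both sides.

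Taf10b had the lowest fold change among the TAF genes. Taf10 and Taf10b are paralogs with a histone fold that stand next to each other in opposite directions on chromosome 2L, at chr2L:2767890-2768612 and chr2L:2767286-2767845 (BDGP6.54). Taf10b had 53.2 and 44.1 normalised CPM in the Inr-a duplication, against 58.1 and 78.7 in wild type, so that both Inr-a duplication libraries were lower, with a log2 fold change of -0.48 (adjusted p = 0.302, limma). Taf10 had 31.5 and 35.0 normalised CPM in the Inr-a duplication, against 27.1 and 36.1 in wild type, with overlap and a log2 fold change of 0.08. The ratio of Taf10b to Taf10 per kb within a library was 2.01 and 1.49 in the Inr-a duplication, against 2.54 and 2.58 in wild type.

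Taf12, a histone fold partner of Taf4, had 28.2 and 24.6 normalised CPM in the Inr-a duplication, against 38.5 and 34.6 in wild type. Both Inr-a duplication libraries were lower, with a log2 fold change of -0.46 (adjusted p = 0.313, limma). Taf12L, its testis paralog also known as rye, had 10.3 and 14.6 normalised CPM in the Inr-a duplication, against 8.76 and 14.9 in wild type, with overlap. The other testis paralogs of TAFs, can, nht, mia and sa, gave 0 of 4 genes past the threshold, with log2 fold changes between -0.32 for nht and 0.57 for can.

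Integrator genes were the only complex of the 4 with a median log2 fold change above 0, at 0.03, and it was below 0 without Inr-a duplication library A (-0.12) or wild type library B (-0.13). IntS11, the endonuclease, had 47.3 and 38.5 normalised CPM in the Inr-a duplication, against 46.3 and 41.5 in wild type, with a log2 fold change of -0.04. IntS9, its partner, had 17.1 and 16.7 in the Inr-a duplication, against 15.6 and 15.2 in wild type, a log2 fold change of 0.13 with an interval from -0.44 to 0.70. IntS4, the scaffold of this cleavage module, had the lowest fold change of the complex. It lies on chromosome X (FBgn0026679, chrX:8555239-8558781, reverse strand, BDGP6.54) and had 43.6 and 24.5 normalised CPM in libraries A and B of the Inr-a duplication, against 51.7 and 47.2 in libraries A and B of the wild type. The log2 fold change was -0.59 with a standard error of 0.29, an unadjusted p of 0.0506 and an adjusted p of 0.241 in limma. Library B of the Inr-a duplication was the low one. Leaving out library A gave a log2 fold change of -1.02, and leaving out library B gave -0.18.

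IntS6, of the phosphatase module, had the highest fold change of the Integrator genes. It had 14.4 and 17.8 normalised CPM in libraries A and B of the Inr-a duplication, against 13.7 and 7.25 in libraries A and B of the wild type. The groups did not overlap but wild type library A lay close to Inr-a duplication library A, and the log2 fold change of 0.65 had an unadjusted p of 0.0472 and an adjusted p of 0.234 in limma. It was 1.09 without wild type library A, 0.20 without wild type library B and 0.26 with the length trend taken out. IntS8, its neighbour in this module, had a log2 fold change of 0.10, and -0.11 with the length trend taken out. IntS10 and IntS14 belong together to an auxiliary arm and lay on opposite sides: IntS10 had 6.75 and 6.36 normalised CPM in the Inr-a duplication, against 4.66 and 4.89 in wild type, while IntS14 had 29.3 and 18.9 in the Inr-a duplication, against 35.9 and 29.8 in wild type. Neither group of values overlapped, with log2 fold changes of 0.42 and -0.46 and adjusted p-values of 0.448 and 0.342 in limma. With a library left out, IntS10 stayed between 0.36 and 0.46, while IntS14 was -0.79 without Inr-a duplication library A and -0.15 without library B. IntS1, the largest subunit, had 44.3 and 39.4 normalised CPM in the Inr-a duplication, against 62.8 and 29.5 in wild type, and its sign turned with the library left out (from -0.59 to 0.49).

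The fold changes followed transcript length, and so did the difference between the wild type libraries. The 23 genes with a longest transcript below 1 kb had a median log2 fold change of -0.21, the 22 genes of 1 to 3 kb -0.08 and the 16 genes above 3 kb 0.17, and in the same classes all genes tested had medians of -0.21, -0.05 and 0.35. Short subunit genes were thus at the median of short genes at large, and long ones lay below the median of long genes. Wild type library B minus library A had a median log2 difference of 0.42 in the short subunit genes, with 0 of 23 lower in library B, and of -0.55 in the long ones, with 15 of 16 lower in library B. For all genes below 1 kb and above 3 kb this difference had medians of 0.25 and -0.28. Across the 61 genes, the rank correlation with length was 0.349 for the log2 fold change, -0.227 for the difference within the Inr-a duplication and -0.823 for that within wild type, where genes share the same 4 libraries and are not independent. Over the 11510 genes tested with a known length these were 0.398, 0.130 and -0.458.

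The wild type libraries differed from each other by more than the genotypes did for 38 of the 61 genes, and the Inr-a duplication libraries for 31. A difference between single libraries varies more than a difference between genotype means, even where the genotypes are alike. These counts, and the medians below within a gene set, therefore cannot show whether the genotype differences are small. The median absolute log2 difference was 0.27 between both libraries of the Inr-a duplication, 0.38 between both of wild type and 0.24 between the genotypes. For all genes tested it was 0.29 and 0.29 between libraries of a genotype and 0.34 between genotypes. The part of length in the differences of single genes was not tested beyond the fit with the length trend taken out, in which none of the 61 genes passed. In that fit the median of the short subunit genes was -0.01 and that of the long ones -0.14.

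**Figure D4:**
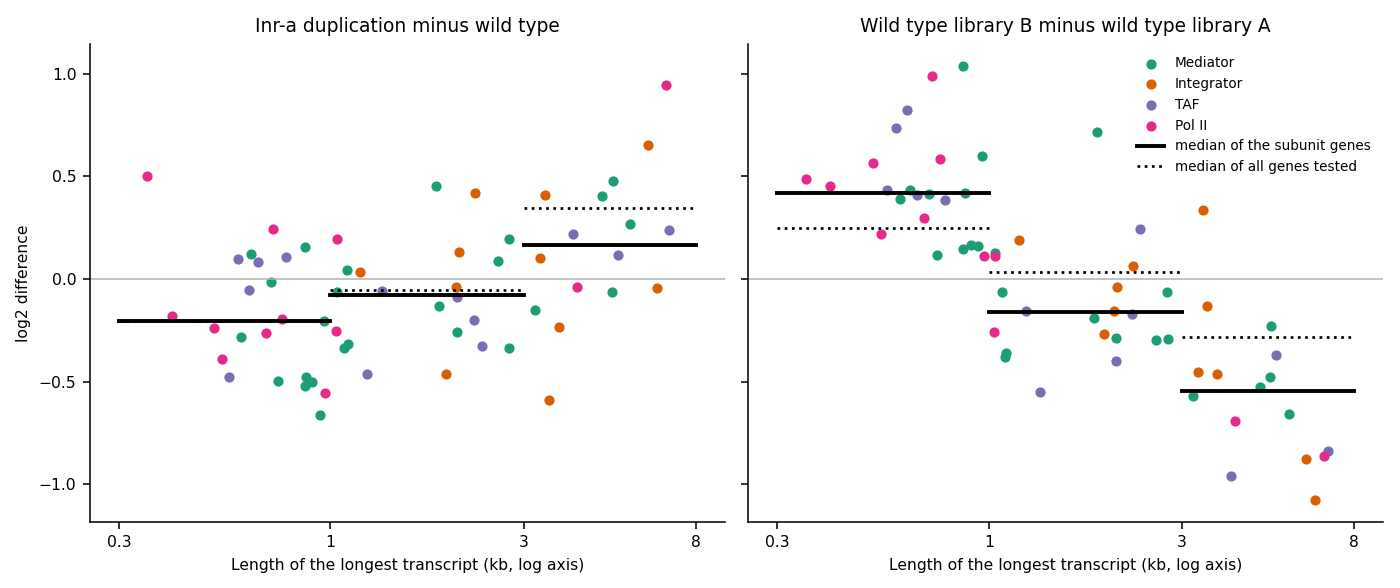
Log2 difference (y axis) against the length of the longest transcript in kb (x axis, log scale) for the 61 subunit genes, coloured by complex, as Inr-a duplication minus wild type (left panel) and wild type library B minus wild type library A (right panel). Solid lines are the medians of the subunit genes below 1 kb, from 1 to 3 kb and above 3 kb (-0.21, -0.08 and 0.17 on the left), and dotted lines those of all genes tested.

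The 61 genes have 104 transcripts in the deposited values, and 42 genes have 1 transcript each. Of the 89 transcripts that passed the filter on low counts, none passed an adjusted p of 0.05 in limma, where 0 of 20111 transcripts tested did so. At an unadjusted p under 0.05 there were 3 higher and 4 lower transcripts, beside 6.71% and 4.64% of all transcripts. With voom weights the number of member transcripts passing was also 0. The counts of single transcripts are estimates of how reads shared by isoforms divide, and they moved between libraries of a genotype.

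Taf1, Taf4 and Taf2 had the widest spread of fitted changes among their transcripts. For Taf1, Taf1-RA took 24.5% and 52.1% of the counts of the gene in the Inr-a duplication, against 45.4% and 28.0% in wild type. Taf1-RE had 133 and 12 counts in the Inr-a duplication and 0 and 0 in wild type, while Taf1-RF had 6 and 10 counts in the Inr-a duplication, against 23 and 41 in wild type. For both of these the groups did not overlap, with unadjusted p-values of 0.0495 and 0.0451 and adjusted p-values of 0.439 and 0.434 in limma. For Taf2, Taf2-RB took 50.5% and 52.9% in the Inr-a duplication, against 0% and 62.3% in wild type, so that 1 wild type library was at 0 and the other above both Inr-a duplication libraries. For Taf4, Taf4-RE had 30 and 144 counts in the Inr-a duplication, against 14 and 6 in wild type, and Taf4-RG took 39.9% and 9.39% in the Inr-a duplication, against 32.8% and 44.3% in wild type.

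In IntS6, Taf12 and Rpb5 an isoform with an unadjusted p under 0.05 can be set beside the other isoforms of the gene. IntS6-RD had 57 and 149 counts in the Inr-a duplication, against 26 and 10 in wild type, and IntS6-RE, the most abundant isoform of IntS6 in 3 libraries, had 145 and 86 counts in the Inr-a duplication, against 138 and 73 in wild type. The log2 fold changes were 1.87 for IntS6-RD and -0.12 for IntS6-RE, with adjusted p-values of 0.431 and 0.937 in limma. Taf12-RD had 250 and 247 counts in the Inr-a duplication, against 356 and 310 in wild type, a log2 fold change of -0.69. The minor transcript of Rpb5 (Polr2E-RB in the annotation) had 3 and 10 counts in the Inr-a duplication, against 28 and 29 in wild type, while its main transcript had 337 and 287 counts in the Inr-a duplication, against 334 and 244 in wild type. The other transcripts with such a p-value belong to MED4 and RpII215, which have a single transcript each.

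**Figure D5:**
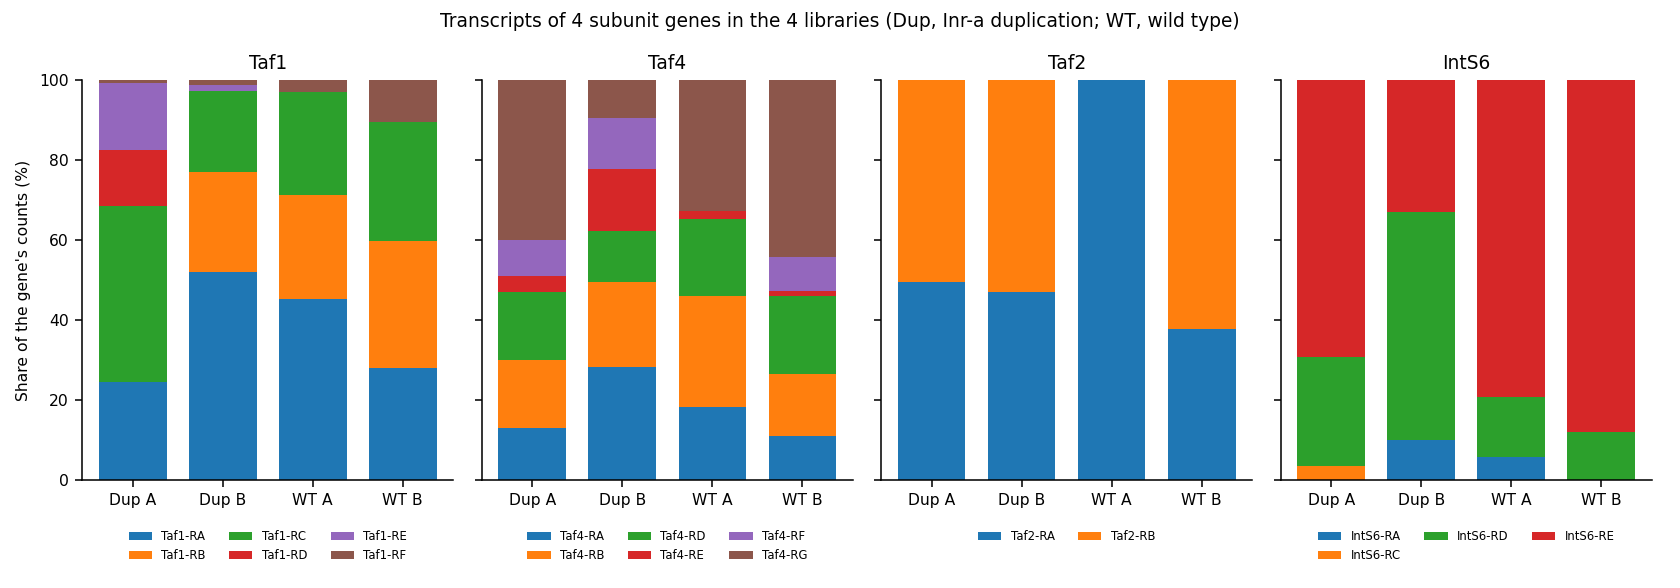
Share of the counts of a gene (%, y axis) taken by each of its transcripts in the 4 libraries, with the Inr-a duplication (Dup) left of wild type (WT), for Taf1, Taf4, Taf2 and IntS6. Taf2-RB is at 0% in wild type library A and at 62.3% in wild type library B.

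Exons of 29 of the 61 genes share bases with another gene, 4 of them with a gene on the same strand and 25 with a gene on the opposite strand. Such reads can be divided only by the quantification, and whether it used strand is not given in the sources used here. For 11 genes the shared bases exceed 10% of the exonic bases. Beside Rpb4 and MED9, the largest shares were 32.7% for IntS11 with asRNA:CR46109 and 26.6% for MED21 with Set1.

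The subunit genes on chromosome X, of which males have a single copy, did not stand together. The 7 genes on X had log2 fold changes between -0.59 (IntS4) and 0.95 (RpII215) with a median of -0.23, beside -0.01 for all genes of X. The median was -0.06 for the 10 genes on 2L, -0.12 for the 10 on 2R, -0.01 for the 15 on 3L and -0.11 for the 18 on 3R, and all genes tested of these arms had medians of 0.03, 0.02, 0.04 and -0.01. Pcf11 lies on 2R.

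None of 62 other genes of the transcription machinery passed an adjusted p of 0.05 in limma or in voom, and 5 had an unadjusted p under 0.05 as higher and 2 as lower, together 11.3%, which is below the 20.8% of all genes tested. The Mediator kinase module, made of kto, skd, CycC and Cdk8, had a median log2 fold change of -0.11 and Cdk8 the lowest value at -0.12. The largest value was that of skd, at 0.54, with 20.4 and 30.6 normalised CPM in the Inr-a duplication, against 25.5 and 11.4 in wild type. Integrator subunits under other symbols, with the phosphatase core, had values between -0.51 for omd (the fly IntS5) and 0.25 over 6 genes, with defl (the fly IntS7) at -0.37. TFIID genes named otherwise and relatives of the TATA-binding protein held the largest values: bip2, the fly Taf3, had 21.3 and 35.9 normalised CPM in the Inr-a duplication, against 18.2 and 15.5 in wild type, a log2 fold change of 0.71. Trf2 had 18.1 and 33.4 in the Inr-a duplication, against 18.7 and 11.4 in wild type, and Trf had 10.1 and 11.4 in the Inr-a duplication, against 16.7 and 18.8 in wild type, with log2 fold changes of 0.73 and -0.69 and adjusted p-values of 0.194 and 0.170 in limma. With library A of the Inr-a duplication left out, bip2 was 1.06 and Trf2 1.14. With library B left out, bip2 was 0.34 and Trf2 0.30.

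The 17 general transcription factor genes had a median log2 fold change of -0.33, with 13 below 0, and for 8 of them, or 47.1%, both libraries of the Inr-a duplication were lower than both of wild type, beside 26.7% of all genes. Their longest transcripts had between 617 and 2797 bases. The same order held for 41.4% of all genes tested below 1 kb and 30.9% of those from 1 to 3 kb. TfIIEalpha, a subunit of TFIIE, had 70.3 and 51.3 normalised CPM in the Inr-a duplication, against 100 and 87.0 in wild type, a log2 fold change of -0.63 with an adjusted p of 0.182 in limma, and Cdk7, the kinase of TFIIH, followed at -0.53. The 20 genes of pausing, elongation and modification of the C-terminal domain had a median of -0.02. CycT, the cyclin of P-TEFb, had 41.6 and 53.9 normalised CPM in the Inr-a duplication, against 40.5 and 21.0 in wild type, and Su(Tpl), an elongation factor of the ELL complex, had 31.6 and 54.9 in the Inr-a duplication, against 30.9 and 22.9 in wild type, with log2 fold changes of 0.69 and 0.64. CycT was 1.16 without wild type library A and 0.21 without wild type library B. Su(Tpl) was 1.02 without Inr-a duplication library A and 0.25 without Inr-a duplication library B. With the length trend taken out the values were 0.29 for CycT and 0.23 for Su(Tpl). Of 6 Pol I and Pol III genes, RpI135 was highest at 0.68 and RpIIIC53 lowest at -0.52. CycT, Su(Tpl), skd, bip2 and Trf2 all have transcripts above 3 kb, and wild type library B was the lower wild type library for each.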

How the data were processed

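The authors trimmed reads with Trimmomatic, quantified transcripts with Salmon 1.4.0 against BDGP6, and deposited, for 30090 transcripts, a mean CPM per genotype. A deposited column with the ratio of these CPM means is the authors' comparison and was not used.

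Library totals were fitted from the low CPM values, and each mean was then searched for the whole counts of both libraries that produce it. Exactly 1 pair was found for 99.7% of the Inr-a duplication and 99.4% of the wild type transcripts above 0, and every transcript of the 61 genes had exactly 1. The 128 genes with an unresolved transcript, all abundant, hold 39.3% of the CPM in the Inr-a duplication and 39.0% in wild type, and were left out of the tests. Values from 100 to 1000 CPM that came from no such pair would find one by accident in 2.16% of cases in the Inr-a duplication and 1.44% in wild type, and values from 1 to 100 CPM in 0.0165% and 0.00569%. The steps were tested on simulated data.

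Transcripts were summed by symbol and chromosome. Genes needed 10 counts at the median library size in 2 libraries and 15 counts in all. Libraries were scaled by TMM with factors of 0.942 and 1.04 for the Inr-a duplication and 1.01 and 1.01 for wild type. A two-sided test was made in R 4.3.3 by limma 3.58.1 with a trend, on log2(normalised CPM + 0.5), so that fold changes of low genes are understated, with Benjamini-Hochberg adjustment over all 11540 genes tested and a threshold of 0.05. No count model was run, since the deposited unit is CPM. Libraries of a genotype are separate samples in the labels, and their counts differed by 33.9 (Inr-a duplication) and 22.9 (wild type) times the sampling variance. With 2 libraries per genotype the smallest two-sided p of an exact permutation test is 0.333. Counts cover 4 libraries, and an interval covers only the spread between these.

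Lengths, exons and coordinates come from Ensembl 115 (BDGP6.54), in which 29964 of 30090 transcripts were found. Per kb values divide each transcript by its own length. The members and all gene lists were chosen with earlier results of these data known. Genes are named by extreme fold change or level within a complex, or by role. Alternatives were library-size and median-of-ratios scaling, pseudocounts of 0.1 and 2, other filters, voom weights, each library left out, and a length trend (lowess, span 0.3) taken out. The snRNA list matched no gene, roX1 and roX2 were not analysed here, and rye is in the files as Taf12L. Figures used Python 3.11.15 and matplotlib 3.10.9.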

Additional observations from a re-analysis of the deposited data

How the results depend on the processing

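With all 4 libraries, none of the 61 genes passed the threshold under any scaling, pseudocount, filter, model or length correction, and leaving out a library gave between 0 and 1 genes higher and between 0 and 1 lower. No member transcript passed under any alternative. The number of genes passing among all genes moved more: 199 were higher and 58 lower, against 59 and 17 with library sizes in place of TMM, 45 and 14 without a filter on low counts, and, with a library left out, between 87 and 542 higher and between 33 and 489 lower. The extremes came without Inr-a duplication library B and A. The number of members at an unadjusted p under 0.05 was 2 without the filter and between 1 and 11 with a library left out. In these fits the lone library of a genotype is assumed to vary like the others. The cause of these shifts was not tested.

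The median log2 fold changes with a library left out lay between -0.13 and 0.15 for Integrator, -0.27 and -0.10 for Mediator, -0.33 and 0.034 for Pol II, and -0.22 and 0.085 for TAF genes. With the length trend taken out the medians were -0.036 for Integrator, -0.019 for Pol II, -0.091 for Mediator and -0.088 for TAF genes. For 29 of the 61 genes the sign was the same under all 12 alternatives. With a library left out, the log2 fold change lay on both sides of 0 for 32 of the 61 genes, and among the genes named by extreme value or role for IntS1 (-0.59 to 0.49), IntS11 (-0.20 to 0.11), MED14 (-0.073 to 0.60), MED26 (-0.042 to 0.98), RpII140 (-0.40 to 0.31), Taf1 (-0.19 to 0.65), Taf10 (-0.12 to 0.27), Taf2 (-0.28 to 0.70), Taf4 (-0.081 to 0.30), Taf6 (-0.30 to 0.11), Cdk8 (-0.34 to 0.077) and skd (-0.040 to 1.10). With the length trend taken out the sign turned for 11 of the 61 genes, among them MED14 (-0.11), Taf1 (-0.18), Taf2 (-0.069) and Taf4 (-0.24). No paired analysis was possible because the deposited columns are means of a genotype and the recovered libraries carry no replicate numbers.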
